A study of Homo sapiens with 8 samples.

Results

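The clustered protocadherins are cell adhesion genes that lie side by side on the long arm of human chromosome 5. Their messenger RNA was examined in RNA-seq data from HEK293T cells, a transformed human embryonic kidney line. Members were taken by gene symbol, as every gene named *PCDHA*, *PCDHAC*, *PCDHB*, *PCDHGA*, *PCDHGB* or *PCDHGC* with a number. 16 of the 19770 genes in the files matched, 2 in the alpha cluster (*PCDHA10* and *PCDHA11*), 4 in the beta cluster (*PCDHB2*, *PCDHB8*, *PCDHB14* and *PCDHB15*) and 10 in the gamma cluster. Gencode 44 lists 60 genes with such symbols, and the others were not analysed here.

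The study compared synthetic transcription activators that are brought to DNA by dCas9, a nuclease-dead Cas9, and asked how specific CRISPR-DREAM was across the transcriptome. All 4 groups received a gRNA pool against the *HBG1*/*HBG2* fetal globin promoters by transient transfection and were harvested at 72 h, with 2 libraries per group. The control received dCas9 + MCP-mCherry, CRISPR-DREAM was dCas9 + MCP-MSN, the SAM system was dCas9-VP64 + MCP-p65-HSF1, and dCas9-VPR carried its activation domains on dCas9 itself. MCP fusions bind MS2 loops in the gRNA, and those 3 groups received MS2-modified gRNAs, whereas dCas9-VPR did not. The labels do not say that the libraries of a group came from separate cultures, so p-values measure only the spread between these libraries.

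Each clustered protocadherin is a transmembrane protein with cadherin repeats that binds the same isoform on a neighbouring cell, and neurons use random combinations of isoforms to tell themselves from other neurons. In the alpha and gamma clusters every variable first exon has its own promoter and is spliced to constant exons shared by the whole cluster, whereas the beta genes have no constant exons shared by the cluster. CTCF and cohesin loop enhancers to the chosen promoters, and DNA methylation keeps the others silent. The C-type genes (*PCDHGC3*, *PCDHGC4* and *PCDHGC5* here) form a separate branch whose use is less random. None of these genes was a target of the gRNAs.

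Values were CPM, the counts per 1e+06 counted reads, each library being scaled to its own counted reads. Estimated depth was 28.5 to 35.2 M reads per library (M, 1e+06 reads), and 3 reads were worth 0.0853 to 0.105 CPM. *HBG2*, the target gene, measured 0.838 to 1.29 CPM in the control, 2187 to 2874 CPM with CRISPR-DREAM, 707 to 860 CPM under SAM and 201 to 218 CPM with dCas9-VPR. All 7 listed genes of HEK293T cells were detected. Of 11 listed markers of other cell types, 6 were in the files, and their summed level was 16.1 to 16.2 CPM in the control, 20.1 to 20.6 CPM with CRISPR-DREAM, 25.29 to 25.31 CPM under SAM and 23.4 to 25.3 CPM with dCas9-VPR. *COL1A1* stood at 8.51 to 15.5 CPM, *COL3A1* at 1.96 to 5.18 CPM and *CD68* at 0.684 to 5.62 CPM. *LUM* stood at 0.601 to 4.38 CPM and *PECAM1* at 0.032 to 1.17 CPM. The endothelial marker *VWF* was listed at 0 in 1 library and at most at 0.229 CPM in the rest. Against the control, *CD68* was higher with CRISPR-DREAM and SAM (log2 differences 1.89 and 1.20, limma adjusted p = 0.000167 and 0.00132). With dCas9-VPR *CD68* stood at 5.62 and 4.74 CPM, against 1.45 and 0.684 CPM in the control. *COL1A1* was higher with CRISPR-DREAM and SAM too (0.37 and 0.67). With dCas9-VPR it stood at 13.34 and 15.05 CPM, against 8.996 and 8.509 CPM in the control. *COL3A1* was lower with CRISPR-DREAM (-0.93). *PECAM1* was higher with CRISPR-DREAM and SAM (0.80 and 1.46). It reached 1 CPM in the SAM libraries alone, so a higher value there was favoured. *LUM* was higher under SAM (0.93). Of the genes of HEK293T cells, *KRT8* (1.20 and 1.06) and *KRT18* (0.22 and 0.31) were higher with CRISPR-DREAM and SAM. *VIM* was lower with both (-0.34 and -0.29). The part of these markers in the results was not tested, and in bulk RNA fewer cells of a type and less RNA per cell cannot be told apart.

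Among the 16 genes in the files, most RNA was in the gamma cluster, and there in 3 genes. The gamma members made up 80.5% to 89.2% of the summed CPM of all 16 members across libraries, the beta members 6.22% to 13.7% and the alpha members 2.74% to 7.04%. *PCDHGC3*, *PCDHGA11* and *PCDHGC4* were the only members to reach 1 CPM in any library. The other 13 members ranged from 0 to 0.861 CPM. Of the 128 member values, 4 were listed at 0 and 20 were at or under 3 reads.

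Levels were also taken per kilobase of the main transcript. This allows for transcript length, but not for how reads of shared exons were divided among genes. On this scale *PCDHGC3* had the highest mean over all 8 libraries (1.22 CPM per kb), followed by *PCDHGA11* (0.847 CPM per kb) and *PCDHGC4* (0.259 CPM per kb). The next was *PCDHB15* at 0.132 CPM per kb, and *PCDHA11* was lowest at 0.0176 CPM per kb. In the control alone *PCDHGA11* and *PCDHGC3* stood at 0.759 and 0.743 CPM per kb, a gap smaller than the difference between the control libraries of *PCDHGA11*. With each activator the mean of *PCDHGC3* was above that of *PCDHGA11*, at 1.29 against 0.797 CPM per kb with CRISPR-DREAM, 1.31 against 0.647 under SAM and 1.54 against 1.18 with dCas9-VPR.

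**Figure D1:**
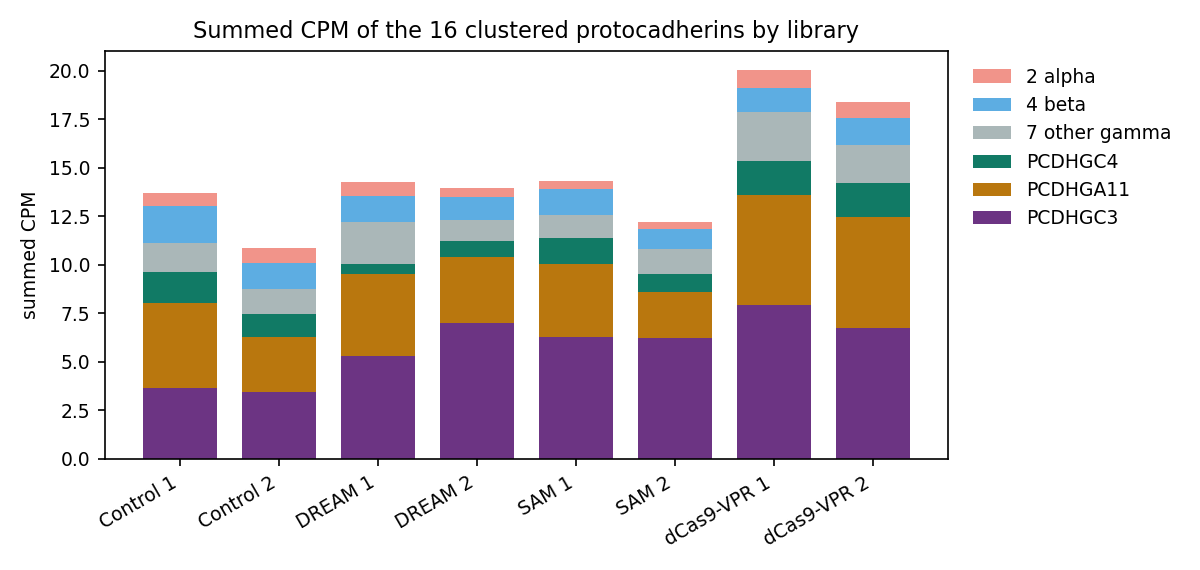
Summed CPM of the 16 clustered protocadherins in each of the 8 libraries, with bar segments for *PCDHGC3*, *PCDHGA11*, *PCDHGC4*, the 7 other gamma members, the 4 beta members and the 2 alpha members. The 3 named gamma genes fill most of every bar, and the tallest bars, 20.02 and 18.4 CPM, are those of dCas9-VPR.

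*PCDHGC3* RNA was higher with all 3 activators than in the control. *PCDHGC3*, a C-type gamma gene known to be used in many tissues outside the brain, lies at chr5:141475947-141512978 on the plus strand of hg38 by the deposited positions. This gene measured 3.63 and 3.43 CPM in the control, 5.27 and 6.96 CPM with CRISPR-DREAM, 6.25 and 6.21 CPM with the SAM system, and 7.93 and 6.75 CPM with dCas9-VPR. Every activator library was above both control libraries, and the libraries of the 3 activators overlapped one another in 2 of 3 pairings: dCas9-VPR stood above the SAM system in both libraries. These values stand for an estimated 105 to 277 reads per library.

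The ratio of *PCDHGC3* mean CPM to the control was 1.73 with CRISPR-DREAM, 1.76 under SAM and 2.08 with dCas9-VPR. On the log2(CPM + 0.5) scale, which understates changes of low genes, limma gave a difference from the control of 0.70 (s.e. 0.15, adjusted p = 0.00552) for CRISPR-DREAM. It gave 0.74 (s.e. 0.15, adjusted p = 0.00259) for the SAM system and 0.96 (s.e. 0.15, adjusted p = 0.00264) for dCas9-VPR. These 3 comparisons shared the same 2 control libraries. *PCDHGC3* kept an adjusted p under 0.05 against the control in all 10 alternatives run for each activator, the highest being 0.0415 without dCas9-VPR replicate 1.

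Between activators the *PCDHGC3* differences did not pass the test. The log2 difference was -0.04 (95% interval -0.36 to 0.29, limma adjusted p = 0.895) for CRISPR-DREAM against the SAM system. It was -0.25 (-0.58 to 0.07, limma adjusted p = 0.291) for CRISPR-DREAM against dCas9-VPR, and -0.22 (-0.54 to 0.11, limma adjusted p = 0.289) for the SAM system against dCas9-VPR. These intervals do not show that the activators acted alike, since they reach as far as 0.58 on the log2 scale.

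*PCDHGC4* moved the other way with CRISPR-DREAM. *PCDHGC4*, a C-type gamma gene known for its role in the survival of neurons, measured 1.58 and 1.14 CPM in the control, 0.513 and 0.868 CPM with CRISPR-DREAM, 1.35 and 0.914 CPM with the SAM system, and 1.74 and 1.76 CPM with dCas9-VPR. Both CRISPR-DREAM libraries were below every library of the other groups. They held an estimated 16.2 and 24.7 reads.

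The log2 difference of *PCDHGC4* for CRISPR-DREAM was -0.65 against the control (s.e. 0.22, limma adjusted p = 0.0476) and -0.93 against dCas9-VPR (s.e. 0.22, limma adjusted p = 0.0206). The first call was lost without Control replicate 1 (adjusted p = 0.227), Control replicate 2 (0.0678) or DREAM replicate 1 (0.237), with a pseudocount of 1 (0.0515), without the filter on low values (0.0506) and in a fit of those 4 libraries alone (0.0869). The second was lost without DREAM replicate 1 (0.0769), dCas9-VPR replicate 1 (0.114) or dCas9-VPR replicate 2 (0.121). Against the SAM system the difference was -0.46 (95% interval -0.94 to 0.03, limma adjusted p = 0.192). Neither CRISPR-DREAM library reached 1 CPM. *PCDHGC4* thus entered the fit through libraries of the other groups alone, and a lower value with CRISPR-DREAM was favoured.

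*PCDHGA11* was highest with dCas9-VPR. *PCDHGA11*, an A-type gamma gene, measured 4.41 and 2.85 CPM in the control, 4.23 and 3.40 CPM with CRISPR-DREAM, 3.79 and 2.41 CPM with the SAM system, and 5.66 and 5.69 CPM with dCas9-VPR. Both dCas9-VPR libraries were above the other 6, whose groups overlapped. Its control libraries lay 0.55 apart on the log2 scale, against 0.072 for *PCDHGC3*.

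The SAM system was 0.81 lower than dCas9-VPR for *PCDHGA11* on the log2 scale (s.e. 0.22, limma adjusted p = 0.0203). That call was lost without SAM replicate 2 (0.16), dCas9-VPR replicate 1 (0.0864) or dCas9-VPR replicate 2 (0.0937). The difference between dCas9-VPR and the control was 0.61 (s.e. 0.22) and did not pass (limma adjusted p = 0.0832), whereas it passed without Control replicate 1 (0.0417) and in a fit of those 4 libraries alone (0.0247). The differences of CRISPR-DREAM and the SAM system from the control were 0.08 and -0.20, each with an s.e. of 0.22.

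**Figure D2:**
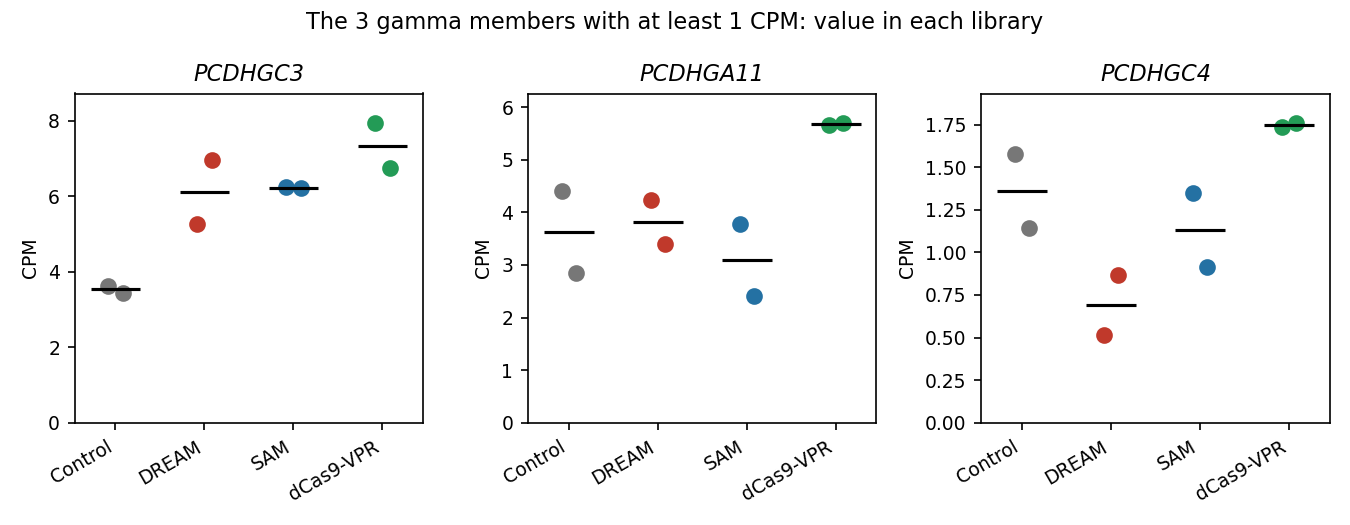
CPM of *PCDHGC3*, *PCDHGA11* and *PCDHGC4* by group, with 1 point per library and a line at the mean of the 2 libraries; each panel has its own axis from 0. The control points of *PCDHGC3* (3.63 and 3.43 CPM) lie below all others, the CRISPR-DREAM points of *PCDHGC4* (0.513 and 0.868 CPM) lie below all others, and the dCas9-VPR points of *PCDHGA11* (5.66 and 5.69 CPM) lie above all others.

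Only 3 of the 16 members could be tested, those that reached 1 CPM in 2 libraries or more. None of these 3 passed the study's threshold of a fold change above 2 with a false discovery rate below 0.05 in any of 6 comparisons. The limma count was 0 of 3 for CRISPR-DREAM against the control, where 2.55% of 15122 genes passed. It was 0 of 3 for the SAM system (4.34% of genes passed), 0 of 3 for dCas9-VPR (1.1%), 0 of 3 for CRISPR-DREAM against the SAM system (0.721%), 0 of 3 for CRISPR-DREAM against dCas9-VPR (0.734%) and 0 of 3 for the SAM system against dCas9-VPR (2.31%). At an unadjusted p under 0.05 the counts in that order were 2, 1, 2, 0, 2 and 1; no other tool was run.

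With the false discovery rate alone, without a fold threshold, 2 of 3 members passed for CRISPR-DREAM against the control (*PCDHGC3* higher, *PCDHGC4* lower), where 28% of all genes did. *PCDHGC3* passed for the SAM system, where 44.6% of genes passed, and for dCas9-VPR, where 17.6% passed. No member passed between CRISPR-DREAM and the SAM system (10.7% of genes), and the unadjusted count there was 0 too. *PCDHGC4* passed between CRISPR-DREAM and dCas9-VPR (13.1%), and *PCDHGA11* between the SAM system and dCas9-VPR (29.9%). With 3 members tested, these shares cannot be set apart from those of all genes.

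**Figure D3:**
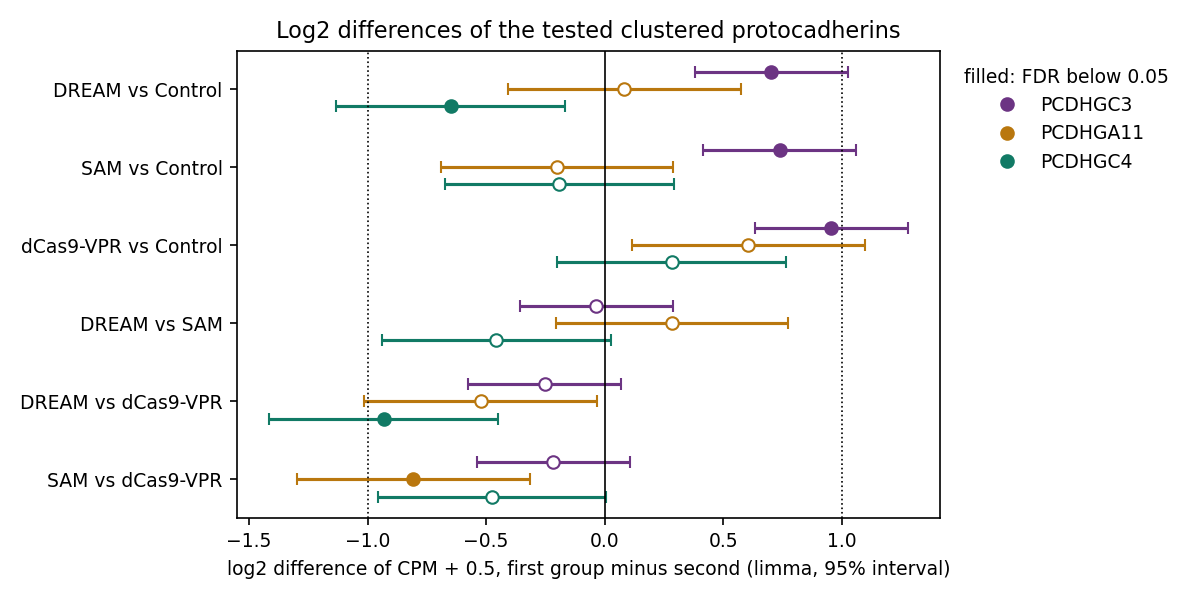
Log2 differences of CPM + 0.5 with 95% intervals for the 3 tested members in the 6 comparisons, the first group minus the second; filled points have an adjusted p under 0.05 and dotted lines mark a 2-fold change. The *PCDHGC3* points against the control are 0.70, 0.74 and 0.96, and none of the 18 points lies beyond a dotted line.

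The third C-type gene, *PCDHGC5*, was close to the limit of detection. It was listed at 0 and at 0.0626 CPM in the control, at 0.171 and 0.0648 CPM with CRISPR-DREAM, at 0.321 and 0.108 CPM with the SAM system, and at 0.196 CPM and listed at 0 with dCas9-VPR. The highest of these was an estimated 11.2 reads. Its group values overlapped among the 3 activators.

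*PCDHGB7*, a B-type gamma gene and the fourth most abundant gamma member, measured 0.470 and 0.251 CPM in the control, 0.624 and 0.390 CPM with CRISPR-DREAM, 0.0539 and 0.109 CPM with the SAM system, and 0.746 and 0.861 CPM with dCas9-VPR. The SAM libraries, with an estimated 1.88 and 3.82 reads, were below all others, and the dCas9-VPR libraries, with 26.1 and 26.8 reads, were above all others. In a limma fit with no filter on low values the SAM system was below dCas9-VPR by a log2 difference of -1.17 (s.e. 0.19, adjusted p = 0.00188). This is past the 2-fold threshold in that fit, where 25.2% of 19770 genes passed the false discovery rate alone. The share of genes past both thresholds in that fit is not reported here, and in the filtered fit it was 2.31% of 15122 genes. At such low counts the fitted difference depends on the pseudocount of 0.5 CPM. In the fit with no filter *PCDHGB7* was lower with the SAM system than in the control (-0.56, s.e. 0.19, adjusted p = 0.0402; 37.8% of genes passed) and higher with CRISPR-DREAM than with the SAM system (0.78, s.e. 0.19, adjusted p = 0.0326; 8.51% of genes passed).

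The remaining gamma members, *PCDHGB1*, *PCDHGB2*, *PCDHGA6*, *PCDHGA7* and *PCDHGA10*, lay between 0 and 0.699 CPM. *PCDHGA7* had the highest mean of these, 0.405 CPM over the 8 libraries. *PCDHGB1* averaged 0.254 CPM in control libraries, 0.0634 CPM with CRISPR-DREAM and 0.0639 CPM with dCas9-VPR, and neither difference from the control passed in the fit without a filter (limma adjusted p = 0.139 and 0.158).

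In the alpha cluster *PCDHA10* measured 0.561 and 0.732 CPM in the control, 0.638 and 0.421 CPM with CRISPR-DREAM, 0.297 and 0.290 CPM with the SAM system, and 0.602 and 0.779 CPM with dCas9-VPR. Both SAM libraries were below the other 6. They held an estimated 10.4 and 10.2 reads. The difference of the SAM system from the control was -0.53 in the unfiltered limma fit (s.e. 0.18, adjusted p = 0.0398), where 37.8% of genes passed. From dCas9-VPR it was -0.58 (s.e. 0.18, adjusted p = 0.0369), where 25.2% of genes passed. *PCDHA11* measured 0.128 and 0.0327 CPM in the control, 0.0634 and 0.0354 CPM with CRISPR-DREAM, 0.104 and 0.0435 CPM with the SAM system, and 0.321 and 0.0322 CPM with dCas9-VPR. Its groups all overlapped, and 5 of its 8 values were at or under 2 reads.

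In the beta cluster no member passed against the control in the unfiltered limma fit (0 of 4 for each activator, also at an unadjusted p under 0.05; 22.2%, 37.8% and 13% of genes passed the false discovery rate). *PCDHB15* measured 0.830 and 0.522 CPM in the control, 0.601 and 0.457 CPM with CRISPR-DREAM, 0.543 and 0.341 CPM with the SAM system, and 0.544 and 0.353 CPM with dCas9-VPR. *PCDHB2* measured 0.631 and 0.442 CPM in the control, 0.314 and 0.221 CPM with CRISPR-DREAM, 0.422 and 0.343 CPM with the SAM system, and 0.228 and 0.516 CPM with dCas9-VPR. *PCDHB14* measured 0.255 and 0.359 CPM, 0.253 and 0.386 CPM, 0.257 and 0.228 CPM, and 0.344 and 0.193 CPM in the same order of groups. Thus the groups of *PCDHB15* and *PCDHB14* overlapped, and *PCDHB2* was below its control libraries with CRISPR-DREAM and the SAM system. *PCDHB8* measured 0.161 and 0.0327 CPM in the control and between 0.130 and 0.347 CPM in the 6 activator libraries.

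**Figure D4:**
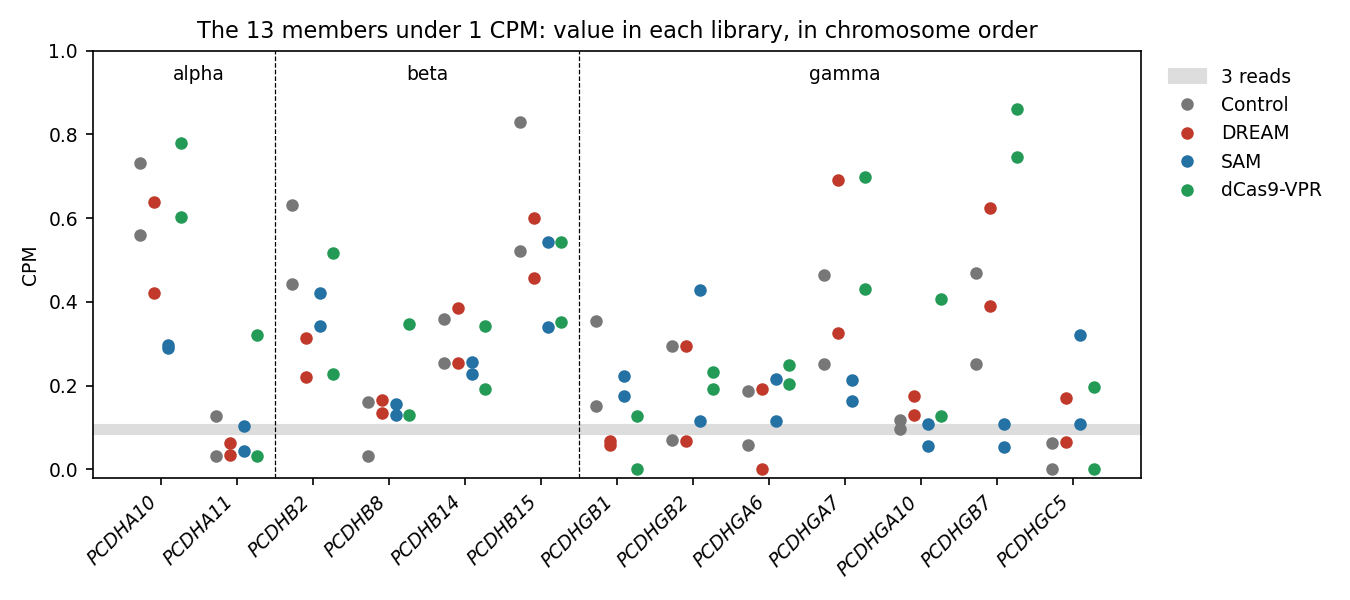
CPM of the 13 members that stayed under 1 CPM, in chromosome order, with 1 point per library coloured by group; the grey band marks the value of 3 reads (0.0853 to 0.105 CPM). The dCas9-VPR and SAM points of *PCDHGB7* lie at opposite ends.

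Of these 13 low members, 2 were higher and 2 lower with CRISPR-DREAM than in the control without overlap between libraries. Of the 4648 genes under the filter, 28% were higher and 17.6% lower in that way, 45.6% in all. Under SAM 1 member was higher (background 42.2%) and 4 were lower (background 13.4%, 55.6% in all). With dCas9-VPR 3 were higher (background 20.8%) and 1 lower (background 21.3%, 42% in all). The 4 members below both control libraries under SAM were *PCDHA10*, *PCDHB2*, *PCDHGA7* and *PCDHGB7*.

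The summed CPM of the 10 gamma members was 11.1 and 8.75 in the control, 12.2 and 12.3 with CRISPR-DREAM, 12.5 and 10.8 under SAM, and 17.8 and 16.2 with dCas9-VPR. The ratio of group means to the control was 1.23, 1.17 and 1.71, and the SAM and control libraries overlapped. Without *PCDHGC3* the gamma ratios were 0.957, 0.848 and 1.51, and only the dCas9-VPR libraries did not overlap those of the control.

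The summed beta CPM was 1.88 and 1.35 in the control, 1.33 and 1.20 with CRISPR-DREAM, 1.35 and 1.07 under SAM, and 1.25 and 1.41 with dCas9-VPR, at ratios to the control of 0.784, 0.749 and 0.821. The summed alpha CPM was 0.688 and 0.765 in the control, 0.701 and 0.456 with CRISPR-DREAM, 0.401 and 0.334 under SAM, and 0.923 and 0.811 with dCas9-VPR, at ratios of 0.796, 0.506 and 1.19. The alpha sum is largely that of *PCDHA10*. *PCDHGC3* made up 32.6% and 39.2% of the gamma sum in the control and 41.8% to 57.5% in the activator libraries.

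The genes of the alpha and gamma clusters share exons, and a read from a shared exon does not by its sequence name 1 gene. All 10 gamma members end in the same 3 constant exons, at chr5:141494807-141494865 (59 bases), chr5:141505393-141505481 (89 bases) and chr5:141510947-141512975 (2029 bases). The 2 alpha members share constant exons of 59, 89 and 2721 bases. In windows of 75 bases, the length of a read, 49.7% to 55.4% of a gamma member's main transcript and 46.6% to 47% of an alpha member's belonged to that gene alone, against 61.4% to 89.7% for beta members. On the opposite strand, exons of the antisense gene *PCDHB1-AS1* (*AC244517.5* in the files, 0.0390 to 0.574 CPM) cover 43.9% of the exonic bases of *PCDHB2* (1797 of 4098). Antisense exons cover 11.6% of *PCDHGB1* and 2.85% of *PCDHA10*, and no other member had such an overlap in Gencode 44. Whether the quantification used strand is not given in the sources used here, so the reads of this pair may not be told apart.

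The members also differed in how often their deposited values were whole reads. A value was called whole when it stood within 0.05 read of a whole number. *PCDHB14* and *PCDHB15* were whole in 8 of 8 libraries. Of the values above 0, 59.4% were whole in the beta cluster, 43.8% in the alpha cluster and 13.2% in the gamma cluster, against 63.8% to 69.4% of the low values of all genes in a library. The all-gene share covers only values under 20 reads. The cluster shares also hold larger values, such as those of *PCDHGC3* (105 to 277 reads) and *PCDHGA11* (84.7 to 198 reads), so they are not like for like. *PCDHGA7*, *PCDHGB7*, *PCDHGA11* and *PCDHGC5* had no whole value in any library. How reads shared by gamma members were divided among them was not tested, and the single gamma levels carry that uncertainty.

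**Figure D5:**
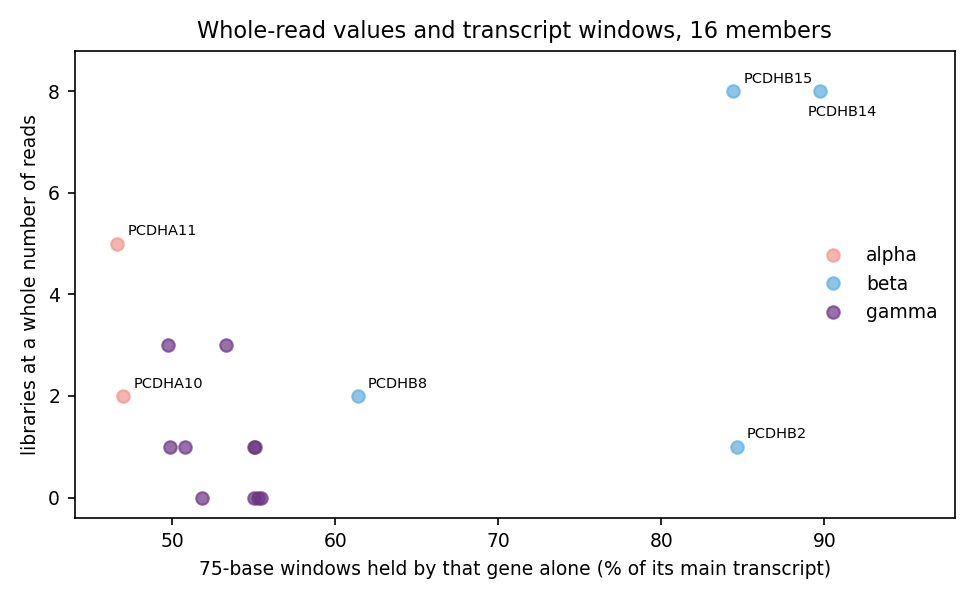
For each of the 16 members, the number of libraries (of 8) whose value was a whole number of reads, against the percentage of 75-base windows of its main transcript found in that gene alone. *PCDHB14* and *PCDHB15* lie at 8 of 8 with 89.7% and 84.4% unique windows, *PCDHB2* lies at 1 of 8 with 84.6%, and the gamma members lie at 0 to 3 of 8 with 49.7% to 55.4%.

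The promoters of these genes share a short core that the selection by name did not use. RefSeq promoter windows of GRCh38.p14, from 250 bases before to 50 after each gene's start, were given for 15 of the 16 members (17 windows). *PCDHGB1* and *PCDHGC4* each had overlapping windows, so a site there can be counted more than 1 time. The letters CGCT, the core of an element described in most clustered protocadherin promoters, were on the gene's strand in 17 of 17 windows and in 51 of the 52 windows of all clusters. They were there in 54.3% of all 35116 promoter windows, and in 70% on either strand. The windows of the 3 genes above 1 CPM and of the most abundant beta and alpha members are shown, with CGCT in capitals on either strand (AGCG on the strand printed).
PCDHGC3 (chr5:141475716-141476015, plus strand): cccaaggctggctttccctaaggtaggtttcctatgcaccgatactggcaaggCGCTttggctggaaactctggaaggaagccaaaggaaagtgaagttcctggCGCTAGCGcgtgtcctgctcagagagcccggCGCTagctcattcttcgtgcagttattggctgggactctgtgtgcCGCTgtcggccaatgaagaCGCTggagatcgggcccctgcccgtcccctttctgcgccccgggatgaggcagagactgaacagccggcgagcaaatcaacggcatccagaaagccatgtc
PCDHGC4 (chr5:141484780-141485079, plus strand): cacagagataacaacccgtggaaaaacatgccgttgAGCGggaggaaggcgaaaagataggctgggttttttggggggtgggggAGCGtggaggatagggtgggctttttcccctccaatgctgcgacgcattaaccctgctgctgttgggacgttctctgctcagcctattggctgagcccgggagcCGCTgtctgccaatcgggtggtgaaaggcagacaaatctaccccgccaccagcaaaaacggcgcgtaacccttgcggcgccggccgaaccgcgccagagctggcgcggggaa
PCDHGA11 (chr5:141420801-141421100, plus strand): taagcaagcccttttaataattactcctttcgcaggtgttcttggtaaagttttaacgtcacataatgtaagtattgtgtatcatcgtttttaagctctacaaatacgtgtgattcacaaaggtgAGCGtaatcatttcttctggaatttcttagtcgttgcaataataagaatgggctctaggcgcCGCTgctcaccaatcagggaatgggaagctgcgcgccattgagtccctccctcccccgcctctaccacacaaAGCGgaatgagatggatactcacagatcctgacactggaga
PCDHB15 (chr5:141245145-141245444, plus strand): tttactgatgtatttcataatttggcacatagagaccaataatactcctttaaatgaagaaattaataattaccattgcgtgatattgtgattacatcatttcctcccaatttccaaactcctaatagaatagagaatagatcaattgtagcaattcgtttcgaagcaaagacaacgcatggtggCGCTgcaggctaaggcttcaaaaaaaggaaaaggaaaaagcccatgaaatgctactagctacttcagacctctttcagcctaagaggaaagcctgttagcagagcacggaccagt
PCDHA10 (chr5:140855647-140855946, plus strand): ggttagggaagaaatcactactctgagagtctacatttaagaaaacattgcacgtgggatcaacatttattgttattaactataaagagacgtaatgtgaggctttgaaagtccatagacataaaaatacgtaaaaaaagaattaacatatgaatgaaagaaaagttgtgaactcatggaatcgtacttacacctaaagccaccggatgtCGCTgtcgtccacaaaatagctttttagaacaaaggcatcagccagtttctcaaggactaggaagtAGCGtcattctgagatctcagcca

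The *PCDHGC3* window held CGCT 5 times on the gene's strand, and those of *PCDHGC4*, *PCDHGA11*, *PCDHB15* and *PCDHA10* held it 1 time each. Some members under 1 CPM held it more often. The 2 overlapping windows of *PCDHGB1* held it 3 and 2 times, and those of *PCDHB2* and *PCDHB14* held it 2 times each. A link between the number of sites and RNA level was not tested. Around the core the clusters differed. The letters TGGCGCT, chosen after the windows were seen, were on the gene's strand in 4 of 4 beta member windows (13 of 14 in the cluster) and in 1 of 11 gamma member windows (5 of 25 in the cluster), against 2.21% of all promoters. The letters CCGCTGT, also chosen after the windows were seen, were in 7 of 11 gamma member windows (14 of 25 in the cluster) and in none of the 6 alpha and beta member windows, against 2.04% of all promoters. Both contain CGCT.

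A TATA box (TATAAA) was found on either strand in 1 of 17 member windows, that of *PCDHA10*, and in 6 of the 52 windows of all clusters (11.5%), against 11.5% of all promoters. AGGNGGC, the centre of the CTCF motif, was in 1 of 17 and in 4 of 52 (7.69%), against 35.9%, both strands counted. A match is only a run of letters, and no match says nothing of a factor.

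Among relatives outside the clusters, more were lower than higher with the activators. The non-clustered protocadherins are solitary adhesion genes of the same superfamily, and 9 of the 11 in the files could be tested. With CRISPR-DREAM 4 of 9 were lower and 0 higher at a false discovery rate below 0.05 (background 9.25% lower, 18.8% higher). Under SAM 3 were lower and 0 higher (background 8.89% and 35.7%), and with dCas9-VPR 2 were lower and 0 higher (6.68% and 11%). Their median log2 differences were -0.45, -0.09 and -0.07, against 0.06, 0.16 and 0.06 over all genes.

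*PCDH10* and *PCDH9*, the most abundant of them, are adhesion genes of the developing brain. *PCDH10* measured 47.9 and 48.9 CPM in the control, 31.7 and 28.6 CPM with CRISPR-DREAM, 33.5 and 32.9 CPM with the SAM system, and 48.3 and 47.5 CPM with dCas9-VPR. *PCDH9* measured 46.1 and 48.3 CPM in the control, 28.03 and 24.9 CPM with CRISPR-DREAM, 31.6 and 33.0 CPM with the SAM system, and 34.4 and 34.9 CPM with dCas9-VPR. *PCDH9* was lower with all 3 activators (log2 differences -0.83, -0.54 and -0.44, limma adjusted p = 5.81e-05, 0.000476 and 0.00502), and *PCDH10* with CRISPR-DREAM (-0.68, adjusted p = 0.000113) and under SAM (-0.54, adjusted p = 0.00032).

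Named after their values were seen, *PCDH7* was also lower under both CRISPR-DREAM (-0.90, limma adjusted p = 0.000809) and SAM (-0.38, adjusted p = 0.0368). Chosen likewise, *PCDH18* was lower with CRISPR-DREAM (-0.89, adjusted p = 0.00239), and *PCDH8* was lower with dCas9-VPR (-0.62, adjusted p = 0.0238). *PCDH8* stood at 0.9445 and 0.8665 CPM with dCas9-VPR. It thus entered the fit without a dCas9-VPR library, and a lower value there was favoured.

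Regulators of the clusters (CTCF, cohesin and its loaders, DNA methyltransferases and silencing factors) were all tested, and none of the 28 passed a 2-fold change. At a false discovery rate below 0.05, 4 were higher and 2 lower with CRISPR-DREAM (background 18.8% and 9.25%), 9 higher and 1 lower under SAM (35.7% and 8.89%), and 2 higher and 1 lower with dCas9-VPR (11% and 6.68%). *TRIM28*, a corepressor, and *RAD21*, a cohesin subunit, were the most abundant (means of 458 and 314 CPM), and their log2 differences from the control lay between -0.08 and 0.06. The median over the list was 0.02, 0.07 and 0.08. By calls read after the values were seen, *DNMT3B* and *RCOR1* were higher with all 3 activators, *SETDB1* and *WIZ* were among those higher with CRISPR-DREAM, *STAG1* was lower with CRISPR-DREAM and under SAM, *CBX3* was lower with CRISPR-DREAM, and *LRIF1* was lower with dCas9-VPR but higher under SAM (0.40, limma adjusted p = 0.00455).

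Partners that carry or process protocadherin signals (the WAVE complex, focal adhesion kinases, *ADAM10* and gamma-secretase) were all tested as well. Of these 20 genes, 3 were higher and 1 lower with CRISPR-DREAM (18.8% and 9.25% of all genes), 11 higher and 1 lower under SAM (35.7% and 8.89%), and 5 higher and 0 lower with dCas9-VPR (11% and 6.68%). The gamma-secretase subunit *APH1A* and the GTPase *RAC1* were the most abundant (382 and 324 CPM). *RAC1* was higher with the SAM system (0.14, limma adjusted p = 0.0452), whereas *APH1A* passed in no comparison with the control. Named after their values were seen, 2 further gamma-secretase subunits were higher with all 3 activators: *PSEN2* by 0.81, 0.80 and 0.38, and *NCSTN* by 0.51, 0.57 and 0.30 on the log2 scale. Chosen likewise, *CYFIP1*, *RET* and *WASF3* were higher with dCas9-VPR, and the lower gene with CRISPR-DREAM and under SAM was *FYN*.

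Of 7 classical cadherins and catenins tested, 3 were higher and 1 lower with CRISPR-DREAM, 5 higher under SAM and 3 higher with dCas9-VPR, where the background of higher genes was 18.8%, 35.7% and 11% and that of lower genes under CRISPR-DREAM 9.25%. *CTNNB1*, which encodes beta-catenin, was the most abundant (535 CPM) and was higher with the SAM system (0.25, limma adjusted p = 0.00185) and dCas9-VPR (0.23, adjusted p = 0.00984). *CTNNA1*, the alpha-catenin gene at 146 CPM, was higher with the SAM system (0.19, adjusted p = 0.0393). Read after the values were seen, *CTNND1* and *JUP* were higher with all 3 activators, *CDH3* with CRISPR-DREAM and under SAM, and *CDH2* was the lower gene.

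Of 27 neighbours within 500 kb of the outermost members, 23 were tested. With CRISPR-DREAM 2 were higher and 3 lower (background 18.8% and 9.25%), under SAM 5 and 3 (35.7% and 8.89%), and with dCas9-VPR 1 and 3 (11% and 6.68%). The most abundant, *HDAC3* (145 CPM) and *DIAPH1* (111 CPM), passed in no comparison with the control. *WDR55* was lower with all 3 activators, *GNPDA1* with CRISPR-DREAM and under SAM, and *RELL2* under SAM and with dCas9-VPR. The higher genes were *ARAP3* and *SLC35A4* with CRISPR-DREAM, *ARAP3*, *ANKHD1-EIF4EBP3*, *FCHSD1*, *RNF14* and *ZMAT2* under SAM, and *SLC35A4* with dCas9-VPR, all named after their values were seen. *TAF7*, a general transcription factor gene between the beta and gamma clusters that was chosen after its values were seen, measured 100 and 94.1 CPM in the control and 76.7 and 69.8 CPM in the CRISPR-DREAM libraries (-0.40, limma adjusted p = 0.00198). *CD14*, a lipopolysaccharide receptor gene, was the only neighbour past the 2-fold threshold (dCas9-VPR against the control, -1.01, limma adjusted p = 0.0498), at 0.893 and 1.04 CPM in the control against 0.229 and 0.225 CPM. It reached 1 CPM only in Control replicate 2 and DREAM replicate 2 (1.04 and 1.19 CPM). It thus entered the fit without a dCas9-VPR library, and a lower value with dCas9-VPR was favoured.

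Among 12 neuronal genes known to be silenced by REST, 4 could be tested, of which 2 were higher and 1 lower with CRISPR-DREAM (background 18.8% and 9.25%), 2 and 2 under SAM (35.7% and 8.89%), and 0 and 2 with dCas9-VPR (11% and 6.68%). *CHGA*, which encodes a secretory granule protein, measured 1.31 and 1.27 CPM in the control and 0.228 to 0.573 CPM in the 6 activator libraries, and passed the 2-fold threshold under both CRISPR-DREAM (-1.11, limma adjusted p = 0.00476) and SAM (-1.10, adjusted p = 0.00303). It reached 1 CPM in the 2 control libraries alone, so it entered the fit only through the group where it was high, and a lower value with the activators was favoured. The neurofilament genes *NEFL* and *NEFM* were higher under both CRISPR-DREAM (0.33 and 0.51) and SAM (0.37 and 0.46). *SYP*, a synaptic vesicle gene named after its values were seen, was lower under SAM and with dCas9-VPR, as was *CHGA*. Listed genes under the filter were not tested. *SNAP25* averaged 0.95 CPM in the control and 0.21, 0.26 and 0.37 CPM with CRISPR-DREAM, SAM and dCas9-VPR. *SYN1* averaged 1.05, 0.37, 0.37 and 0.53 CPM in that order, and *VGF* 0.999, 0.38, 0.41 and 0.31 CPM. The means of *BDNF*, *GRIN1* and *STMN2*, at most 0.314 CPM, were also below the control with each activator. Their libraries overlapped those of the control in places. *GRIN1* stood at 0.190 and 0.386 CPM with CRISPR-DREAM against 0.287 and 0.326 CPM in the control. *STMN2* stood at 0.143 and 0.370 CPM under SAM against 0.351 and 0.196 CPM in the control. Of all genes under the filter, 17.6% were lower without overlap with CRISPR-DREAM, 13.4% under SAM and 21.3% with dCas9-VPR.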

How the data were processed

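RNA-seq was available for 8 HEK293T libraries, 4 groups of 2, grouped by the sample labels. The authors aligned reads with STAR 2.7.3a to hg38, quantified transcripts by a Bayesian method whose tool is not given in the sources used here, and deposited CPM with 0.0001 added to each value. The labels name polyA RNA, whereas the protocol names a stranded total RNA kit. Depth was estimated from the value of 1 read, and read numbers cover counting error only.

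Log2(CPM + 0.5) was fitted with limma 3.58.1 (R 4.3.3, trend and robust) over all 8 libraries, 1 coefficient per group and 6 comparisons. Genes that reached 1 CPM in 2 libraries or more (15122) were tested with Benjamini-Hochberg adjustment. No count model was run, since too few values were whole reads. With 2 libraries against 2 an exact permutation test cannot go below p = 0.333 and was not used. Sums over members were given without a test. The fit was tested on simulated counts with the same setting of spread for every gene, and the outcome is not reported here.

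Members named with every library's value were the 4 most abundant of each cluster, the C-type genes and any past the threshold. Genes of other lists were named where past the threshold or among the 2 most abundant. Members and lists were chosen with earlier results of these data known. Transcripts and exons came from Gencode 44, whose starts and ends matched the deposited positions for 11 of 16 members once the deposited ends were moved by 1 base. Alternatives were another pseudocount, filter, scaling, sample set, replicate block and call rule, and leaving out each library. Not every listed gene is reported here by name.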

Additional observations from a re-analysis of the deposited data

How the results depend on the processing

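The number of members past the 2-fold threshold was 0 in every comparison. Without a fold threshold it was 2 for CRISPR-DREAM against the control, 1 for the SAM system, 1 for dCas9-VPR, 1 for CRISPR-DREAM against dCas9-VPR and 1 for the SAM system against dCas9-VPR. A pseudocount of 0.1 gave 1 for dCas9-VPR against the control (*PCDHGC3*, log2 difference 1.03) and 1 for CRISPR-DREAM against dCas9-VPR (*PCDHGC4*, -1.26). No filter gave 1 for the SAM system against dCas9-VPR (*PCDHGB7*). Leaving out a library gave 0 to 1 in those 3 comparisons: 1 without dCas9-VPR replicate 2, DREAM replicate 2 and SAM replicate 1, in that order. A filter of 10 CPM left no member to test.

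Median-of-ratios scaling shifted the all-gene median of SAM against the control from 0.16 to -0.01. Under it *PCDHGC3* was 0.57 higher there (limma adjusted p = 0.0121), and its difference between CRISPR-DREAM and the SAM system turned from -0.04 to 0.064. Over libraries left out, that difference ran from -0.22 to 0.15, *PCDHGA11* from -0.19 to 0.36 for CRISPR-DREAM and from -0.48 to 0.079 for the SAM system against the control, and *PCDHGC4* for the SAM system from -0.39 to 0.00054; the cause was not tested. With 1 library left in a group, that library is assumed to vary like the others. Under median-of-ratios scaling the 18 ratios of cluster sums moved by less than the spread between replicates.

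Samples of different groups with the same replicate number deviated together (correlations of 0.133 to 0.326 over 15122 genes), but 2 numbers do not establish a pairing. With the replicate number as a block the member counts past the threshold stayed 0. *PCDHGA11* then passed without the fold threshold for dCas9-VPR against the control (limma adjusted p = 0.00247) and for CRISPR-DREAM against dCas9-VPR (0.00968). Depth limits the 13 low members.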
